A study of Sus scrofa with 24 samples.

Results

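Gene expression was compared between undifferentiated intramuscular preadipocytes of the pig (day 0, IMF-0d) and the same kind of cells after 8 days of adipogenic culture (day 8, IMF-8d). The comparison rested on 6 of the 24 RNA libraries of the series, 3 per day, taken by their labels for depot and day. All the cells were primary cultures from Yorkshire piglets at 6 days of age, isolated from the longissimus dorsi, a muscle that runs along the spine. Day 0 cells were collected before induction. Day 8 cells had passed through an induction cocktail of IBMX (a phosphodiesterase inhibitor), dexamethasone (a glucocorticoid) and insulin, then medium with insulin, and from day 4 on growth medium. The other libraries were intramuscular cells on days 2 and 4 and subcutaneous back fat cells (BF) on days 0, 2, 4 and 8, again 3 per group. The cells were a collagenase digest with no sorting step described, so each library is a mixed stromal culture. The time in culture and the differentiation medium cannot be told apart, since no cells were kept for 8 days without induction. The study's methods name 3 piglets, but the labels do not tie a replicate number to a piglet, and the spread between libraries may therefore be partly technical.

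Adipogenesis runs through a relay of transcription factors. Hormonal induction first raises CEBPB and CEBPD, which switch on PPARG and CEBPA, and these drive the genes of lipid uptake, triglyceride storage and adipokine secretion. During the same transition, preadipocytes usually lose actin stress fibres and fibrillar collagen and leave the cell cycle. Intramuscular fat, the marbling of meat, forms from stromal precursors between the muscle fibres.

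Expression was given as FPKM, a count of sequenced fragments divided by the length of the transcript and by the library's mapped total, so levels are per length and may be compared between genes. Changes are differences of log2(FPKM + 1), day 8 minus day 0, which understate the change of genes with low values, and are given with their standard error. A gene was called changed when its Benjamini-Hochberg adjusted p from limma was under 0.01 and its log2 change was at least 1 in size. The words rose and fell are kept for called genes. The 6 libraries held 10625 to 10858 genes at 1 FPKM or more, and their FPKM summed to between 337845 and 379163. Their Pearson correlations across genes were 0.987 to 0.994 within a day and 0.927 to 0.935 between the days, and no pair of libraries held identical values. On the first principal component of the 12 intramuscular libraries, which took 65.3% of the variance, day 8 libraries scored 59.8 to 63.7, whereas no library of an earlier day scored above -13.4.

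Of the 16135 genes tested, 1459 were called between day 0 and day 8 (9.04%), 735 of them higher on day 8 (4.56%) and 724 lower (4.49%). The shares called higher and lower are the ones to set beside each list count below. With a pseudocount of 0.1 in place of 1, 2469 were called. The median log2 change over all tested genes was -0.05. When libraries were rescaled by the median ratio of their genes, 60.0% of the called genes were higher, against 50.4% here. A rise of 3 log2 units or more was seen for 93 genes and a fall of that size for 21. The 3 libraries of one day did not overlap those of the other in 1458 of the called genes, as was also so in 48.8% of all tested genes.

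Identity was examined first. The stromal markers ranged from under 1 FPKM to the level of DCN. PDGFRA, the PDGF receptor that marks adipogenic precursors in muscle and fat, stood at 70.3, 59.2 and 50.8 FPKM on day 0 and 205, 274 and 198 FPKM on day 8. It rose by 1.89 ± 0.24 (SE, n = 3 libraries a day, limma adjusted p = 4.47e-06). DCN, the collagen-binding proteoglycan decorin, was at 777 ± 48.8 (SD) and 929.9 ± 26.3 FPKM and was not called. Endoglin (ENG) and NT5E, surface markers of stromal cells, also stayed uncalled, at log2 changes of 0.07 and -0.21. In contrast PI16, a marker of adventitial progenitor fibroblasts, fell from 25.4, 34.4 and 33.8 FPKM to 1.72, 2.4 and 2.03 FPKM. Among 14 tested stromal markers 2 rose, 1 fell and 11 were not called, and their summed level lay at 1189.8 to 1352 FPKM on day 0 and at 1560 to 1647 FPKM on day 8. Among the low ones were DPP4, at means of 6.36 and 3.84 FPKM, and CD34, at 1.82 and 0.679 FPKM, whose log2 change of -0.74 had an adjusted p of 7.67e-05 but reached the size for a call only with a pseudocount of 0.1. ICAM1, an adhesion molecule, was the other rise, and its call was lost without IMF-0d replicate 1 or IMF-8d replicate 3 (log2 change down to 0.97).

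Markers of other cell types differed widely in level. Of 17 matched myogenic markers 10 were listed at 0 in all 6 libraries, among them PAX7, MYF5, MYOD1 and MYOG. The summed level of the list was 30.7 to 46.8 FPKM on day 0 and 2.08 to 3.15 FPKM on day 8. Desmin (DES), a filament protein shared by muscle and myofibroblasts, was nearly all of it on day 0. On day 8 DES was at 1.27, 1.57 and 2.22 FPKM, a smaller part of the sum. Of the immune markers PTPRC, CD163, CD3E and LYZ were listed at 0 in all 6 libraries, CD14 was at means of 5.18 and 7.74 FPKM, and TYROBP, a signalling adaptor of myeloid cells, rose from 1.26, 0.405 and 0.402 to 9.13, 5.47 and 4.74 FPKM. The summed immune list lay at 61.3 to 74.4 FPKM on day 0 and at 72.0 to 89.6 FPKM on day 8, and it was carried by CD79A (59.4 and 67.1 FPKM, not called). Endothelial markers summed to 25.1 to 32.2 and 16.5 to 25.2 FPKM, with CDH5 at 0.0541 FPKM or less and ERG the single called member (log2 change -1.21, lost in 4 of the 6 fits that leave out 1 library). Schwann markers held 0 called of 7 tested, and summed to 90.1 to 108 and 83.6 to 105 FPKM, almost all of it from PMP22 and ERBB3. Pericyte and smooth muscle markers summed to 131 to 149 FPKM on day 0 and 241 to 248 FPKM on day 8. Of 9 tested members 2 rose, 1 fell and 6 were not called, with uncalled changes of -0.6 to 0.4. RGS5, a regulator of G protein signalling typical of pericytes, was at 1.51, 1.23 and 0.753 FPKM on day 0 and 68.4, 83.8 and 56.7 FPKM on day 8. CSRP2 rose and CSPG4, the pericyte proteoglycan NG2, fell (29.5, 25.8 and 32.6 FPKM to 5.66, 5.39 and 6.19 FPKM). The part that a shift in cell makeup played in any change was not tested, and in bulk libraries fewer cells of a type cannot be told apart from less RNA per cell.

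The core adipogenic factors were at low levels on both days. PPARG, the master regulator of fat cells, was at 0.425, 0.147 and 0.195 FPKM on day 0 and 0.176, 0.193 and 0 FPKM on day 8, a log2 change of -0.16 ± 0.29 (limma adjusted p = 0.719). CEBPA, its partner, was at 1.58, 2.06 and 1.62 FPKM on day 0 and 1.87, 1.28 and 2.11 FPKM on day 8 (log2 change -0.01 ± 0.23, not called). Its mean was higher on the days between, at 2.89 FPKM on day 2 and 5.89 FPKM on day 4. Of 19 tested adipogenic transcription factors, 2 rose, 2 fell and 15 were not called, with a median change of 0.00. The early factor CEBPB rose by 1.66 ± 0.25 from 9.38, 9.57 and 12.7 to 45.4, 26 and 37 FPKM, and KLF15, a glucocorticoid-induced activator of adipogenesis, rose by 1.51 ± 0.19 from a mean of 1.34 to 5.69 FPKM. KLF4, an early inducer of CEBPB, fell by 1.54 on the log2 scale, and ZNF423, a determinant of the preadipocyte state, fell by 1.20 (not called without IMF-8d replicate 1, adjusted p = 0.0107).

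Of the genes of the finished adipocyte, LPL and CFD were called and both rose. Lipoprotein lipase (LPL, chr14:4104761-4134964 in Sscrofa11.1), which frees fatty acids from circulating triglyceride, stood at 1.18, 1.18 and 0.822 FPKM on day 0 and 127, 141 and 93.7 FPKM on day 8. The means differed 113-fold and the log2 change was 5.86 ± 0.58 (adjusted p = 2.61e-07). CFD, the adipokine adipsin, went from 1.17, 1.17 and 1.67 to 35.6, 21.1 and 33.5 FPKM. By contrast ADIPOQ (adiponectin) was listed at 0 in all 6 libraries, and the droplet coat gene PLIN1 did not exceed 0.0138 FPKM. FABP4, the fatty acid carrier of adipocytes, was listed at 0 in each day 0 library and at 0.3, 0.236 and 0.676 FPKM on day 8, which was not called (adjusted p = 0.127) but was called higher with a pseudocount of 0.1. Of 17 matched genes of this list 8 passed the filter on low values, since the remainder were near 0 in every group, and 11 stayed under 1 FPKM in all 6 libraries. PLIN2, the droplet coat protein of most cell types, was at 25.6, 23.6 and 22.3 FPKM on day 0 and 25.8, 24 and 23.2 FPKM on day 8, a log2 change of 0.03 ± 0.23 that was not called.

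**Figure D1:**
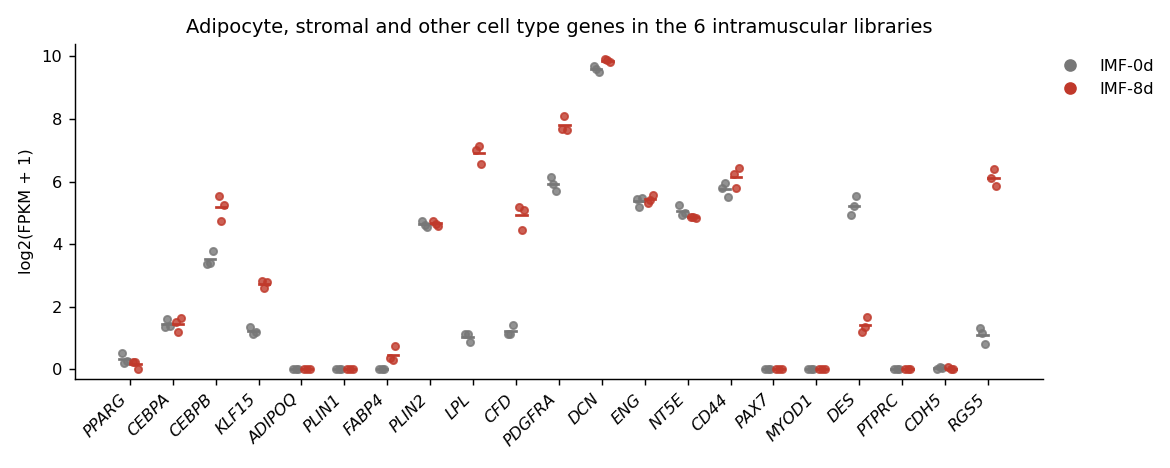
Level of 21 adipocyte, stromal, muscle, blood, endothelial and pericyte genes on the log2(FPKM + 1) scale (vertical axis), with 1 point per library, grey for IMF-0d and red for IMF-8d, and a bar at the mean of the 3 libraries. PPARG, ADIPOQ, PLIN1, FABP4, PAX7, MYOD1, PTPRC and CDH5 lie at or near 0 on both days, while LPL, CFD and RGS5 separate widely by day.

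Lipid handling genes moved in both directions. PCK1 codes for PEPCK, an enzyme of the route from pyruvate to glycerol phosphate in fat cells. PCK1 was at 0, 0.0302 and 0 FPKM on day 0 and 64.5, 99.7 and 88 FPKM on day 8, one of the 12 largest rises (6.37 ± 0.78, limma adjusted p = 3.19e-06). The acyl-CoA synthetases ACSL1 and ACSL4, which activate fatty acids, rose 7.26-fold and 8.9-fold in their means. Glycerol kinase (GK, the gene ID that the study pairs with this name) was at 2.36, 2.48 and 2.35 FPKM on day 0 and 8.07, 9.18 and 7.15 FPKM on day 8 and was called at an adjusted p of 0.00864, but in each of the 6 fits without 1 library its adjusted p exceeded 0.01. PLIN3 rose from 8.39 to 18.9 FPKM, a call that was lost without IMF-0d replicate 2 or IMF-8d replicate 3, where the log2 change went down to 0.98. On the falling side were the monoglyceride lipase MGLL (6.34-fold lower), the acyltransferase GPAT3 (4.58-fold lower) and the muscle fatty acid carrier FABP3 (8.37, 8.73 and 8.54 FPKM on day 0 and 1.17, 1.15 and 1.74 FPKM on day 8). In counts, 4.56% of all tested genes rose and 4.49% fell. Triglyceride and droplet genes held 3 rises and 2 falls among 21 tested (median 0.12), with 1 to 2 rises when 1 library was left out. Fatty acid uptake and activation held 3 rises and 2 falls among 13 (median -0.34), with 1 to 3 falls when 1 library was left out and 1 under median ratio scaling. The second fall was CAV1, the caveolin of membrane pits (log2 change -1.05), a call lost under median ratio scaling and without IMF-0d replicate 1 or IMF-8d replicate 3.

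Of 16 tested genes of fatty acid synthesis 3 fell and 1 rose, with a median of -0.65, against 4.49% of all tested genes that fell and 4.56% that rose. Under median ratio scaling 2 fell, and 2 to 3 when 1 library was left out. SCD, the desaturase that makes oleate, was at 64.8, 67.2 and 60.6 FPKM on day 0 and 19.7, 26.8 and 18.6 FPKM on day 8, with a log2 change of -1.54 ± 0.22. ACLY, which supplies cytosolic acetyl-CoA, fell from 87.6 to 40.9 FPKM (log2 change -1.09, and under 1 in size under median ratio scaling and without IMF-8d replicate 1), and FADS3 fell by 1.21, not called without IMF-0d replicate 3 (adjusted p up to 0.0138) or IMF-8d replicate 2. The single rise was ELOVL3, an elongase of very long chains, from 0.133 FPKM or less to 1.48, 1.36 and 1.51 FPKM.

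Most genes of cholesterol synthesis fell. Of 23 tested genes of the pathway and its uptake arm 15 fell, 1 rose and 7 were not called, against 4.49% of all tested genes that fell, and the median change was -1.17. SQLE, the epoxidase that commits squalene to sterol, was at 32.7, 31.4 and 29.9 FPKM on day 0 and 4.95, 6.19 and 4.23 FPKM on day 8 (-2.41 ± 0.20, adjusted p = 1.99e-08). IDI1, the isomerase that supplies the isoprenoid building blocks, was at 57.7, 65.5 and 58.5 FPKM on day 0 and 12.2, 11.4 and 10.6 FPKM on day 8, a 5.31-fold lower mean. HSD17B7, a reductase of the same route, was the exception, and rose from 10.9, 8.99 and 11.7 to 34.7, 33.7 and 35.4 FPKM. Leaving out any single library of the comparison left 13 to 15 falls. With median ratio scaling 12 fell.

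Cytokines that signal through gp130, the receptor subunit shared by the IL6 family, included the largest rise among the named genes on the log2(FPKM + 1) scale. IL11 (chr6:59540482-59544909), a profibrotic member of that family, was at 1.59, 1.73 and 1.29 FPKM on day 0 and 842, 735 and 906 FPKM on day 8, a 539-fold difference of means and a log2 change of 8.35 ± 0.77 (adjusted p = 9.58e-08). IL6 itself, which acts through the same shared receptor, was at 7.29, 5.73 and 6.79 FPKM on day 0 and 842, 819 and 717 FPKM on day 8 (6.71 ± 0.54). LIF, another ligand of the family, rose from 2.38, 2.09 and 1.99 to 90.8, 113 and 97.9 FPKM. The days do not overlap for the 3 cytokines, as in 48.8% of all tested genes, and the rule that picked IL11 and IL6 required it. SOCS3, the feedback inhibitor that gp130 signalling normally induces, fell from 28.8, 23.9 and 30.9 FPKM to 10.1, 9.69 and 11.7 FPKM (-1.32 ± 0.18). Of 14 tested members of the list 4 rose, 1 fell and 9 were not called, with uncalled changes of -0.56 to 0.80.

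Chemokines and inflammatory mediators followed. Of 16 tested chemokines, colony-stimulating factors and their feedback genes, 8 rose and 1 fell (median 2.03), and fits on the intramuscular libraries alone called 11 higher. CXCL8, the neutrophil chemokine, was at 0.63, 0.812 and 0.756 FPKM on day 0 and 236, 289 and 192 FPKM on day 8, CXCL14 at 1.76, 1.26 and 1.42 FPKM on day 0 and 187, 155 and 216 FPKM on day 8, and IL1A, an alarm cytokine of damaged or stressed cells, at 0.42, 0.428 and 0.415 FPKM on day 0 and 79.6, 75.9 and 62.5 FPKM on day 8. CXCL2 rose 25.9-fold. CSF1, the macrophage growth factor, went the other way, from 63.4 to 22.7 FPKM, a call lost without IMF-0d replicate 2 (adjusted p up to 0.0115) or IMF-8d replicate 2. Complement C3 (0.745, 0.843 and 0.714 FPKM on day 0 and 173, 174 and 183 FPKM on day 8) and the glycoprotein CHI3L1 (1.15, 1.14 and 1.61 FPKM on day 0 and 268, 211 and 269 FPKM on day 8) were among the 12 largest rises.

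Of 13 tested genes of prostaglandin synthesis and reception 7 rose, 0 fell and 6 were not called, with changes of -0.58 to 0.69. PLA2G4A, which frees arachidonate from membranes, was at 7.38, 6.12 and 4.86 FPKM on day 0 and 130.1, 148 and 102 FPKM on day 8. PTGS2 (chr9:127850164-127858866), the inducible cyclooxygenase COX-2, was at 2.48, 1.73 and 1.75 FPKM on day 0 and 412, 503 and 343 FPKM on day 8, 211-fold higher in the mean (7.13 ± 0.65, adjusted p = 8.75e-08). AKR1B1, a reductase able to make prostaglandin F2 alpha, rose 6.67-fold, and the prostacyclin receptor PTGIR rose from 0.319, 0.179 and 0.313 to 9.11, 8.21 and 7.83 FPKM. The annotated spans of PLA2G4A and PTGS2 overlap on chromosome 9, on opposite strands in RefSeq, and whether the quantification used strand is not stated, so reads there could count for either gene.

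**Figure D2:**
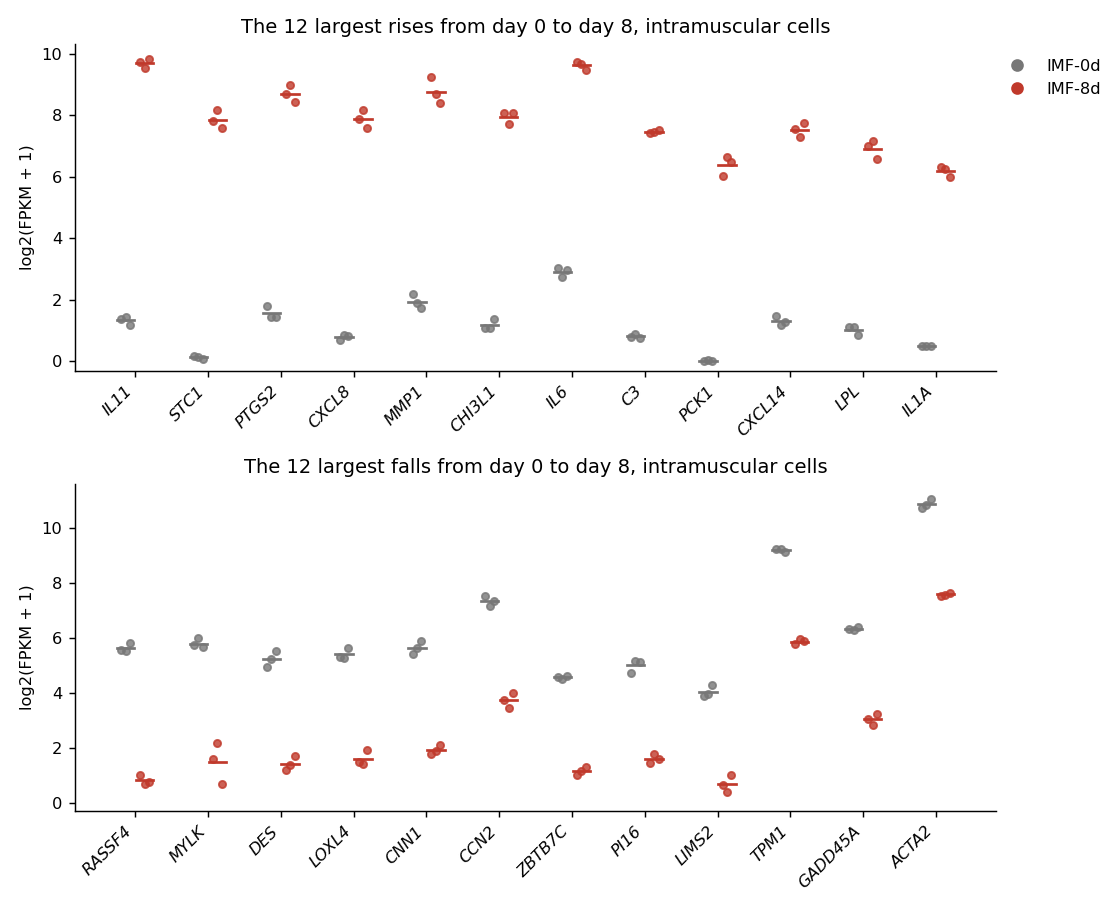
The 12 genes with the largest rise (upper panel) and the 12 with the largest fall (lower panel) from day 0 to day 8, as log2(FPKM + 1) with 1 point per library and a bar at the mean of the 3 libraries of IMF-0d (grey) or IMF-8d (red). The days do not overlap for any of the 24 genes, which were picked for that and for size, and the upper panel ranges from IL11 (8.35) to IL1A (5.69), the lower from RASSF4 (-4.81) to ACTA2 (-3.29).

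Of 20 tested ligands, receptors and feedback genes of the EGF and FGF pathways 6 rose and 0 fell. FGF10, a mitogen of preadipocytes, went from 0.267 FPKM or less to 19.6, 22.3 and 14.8 FPKM, and the EGF receptor ligands AREG and EREG from means of 5.47 and 0.14 FPKM to 83 and 22 FPKM. FGF2, a candidate of the study, stood at 34.2, 42.5 and 26.4 FPKM on day 0 and 183, 249 and 165 FPKM on day 8. In the TGF-beta, activin and BMP list 12 of 33 members rose and 2 fell, with 9 to 11 rises when 1 library was left out. GREM1, a secreted antagonist of BMPs, led with 4.96, 4.15 and 3.68 FPKM on day 0 and 181, 193 and 182 FPKM on day 8, 43.5-fold higher in the mean. The stress cytokine GDF15 and the BMP target ID2 rose 4.5-fold and 4.3-fold. INHBA, the activin A subunit, was called at 2.22 (adjusted p = 0.00525) but lost the call in all 6 fits without 1 library. CHRDL1, another BMP antagonist, and ID4 fell, but ID4 was not called without IMF-8d replicate 2.

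WNT genes split. SFRP1, a secreted WNT inhibitor known to favour adipogenesis, rose 32.1-fold (13.8, 10.8 and 10.1 FPKM on day 0 and 381, 386 and 349.5 FPKM on day 8). WNT5A and WNT11, ligands of the beta-catenin independent branch, rose from under 1 FPKM to means of 17.6 and 6.61 FPKM. DKK2 and WNT2B, low on day 0 already (3.28 and 1.85 FPKM), fell to 0.00962 and 0.0878 FPKM. The list held 4 rises and 2 falls among 22 tested genes, with a median of -0.08. With a pseudocount of 0.1 it held 6 rises and 4 falls, and when 1 library was left out 2 to 3 fell.

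The IGF system held some of the most abundant rises. IGFBP2, a carrier of IGFs, was at 534, 513 and 707 FPKM on day 0 and 7635, 5582 and 8135 FPKM on day 8, a 12.2-fold difference of means. IGFBP5 was at 103, 122 and 104 FPKM on day 0 and 1256, 1785 and 1514 FPKM on day 8 and IGFBP4 at 48.9, 39.9 and 54.5 FPKM on day 0 and 562, 493 and 639 FPKM on day 8. STC1, a secreted inhibitor of the protease that cleaves IGFBP4, went from 0.139 FPKM or less to 224, 288 and 193 FPKM. This was the second largest rise among the named genes on the log2(FPKM + 1) scale (7.72 ± 0.70). Over the alternative settings the log2 change reached 10.18 for STC1 and 9.567 for PCK1, against 8.988 for IL11. IGFBP6, which prefers IGF2, fell from 86.4, 74.8 and 105 FPKM to 24, 17.9 and 25 FPKM. In counts, 5 of 14 tested genes rose and 1 fell.

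Genes that respond to hormones and second messengers were counted next. Among 17 tested cAMP-responsive genes 9 rose and 1 fell (median 1.47). RGS2, a brake on G protein signalling, was at 2.07, 1.01 and 1.41 FPKM on day 0 and 113, 105 and 109 FPKM on day 8, the orphan nuclear receptor NR4A2 at 2.61, 3.32 and 2.5 FPKM on day 0 and 113, 139 and 119.7 FPKM on day 8, and the kinase SIK1 at 0.636, 0.833 and 0.743 FPKM on day 0 and 49, 54.9 and 52.4 FPKM on day 8. Of 12 glucocorticoid-responsive genes 4 rose and 1 fell, against 4.56% of all tested genes that rose and 4.49% that fell. Under median ratio scaling 0 fell, and when 1 library was left out 3 to 4 rose and 0 to 1 fell. ERRFI1, an inhibitor of the EGF receptor, rose 7.5-fold, HSD11B1, the enzyme that regenerates active cortisol, 8.9-fold, and the kinase SGK1 3.2-fold. Day 8 cells had been out of IBMX and dexamethasone since the induction phase.

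Of 13 retinoid genes 4 fell and 1 rose (median -0.57), against 4.49% of all tested genes that fell and 4.56% that rose. DHRS3, a retinaldehyde reductase induced by retinoic acid, was at 46.7, 48 and 59.6 FPKM on day 0 and 4.17, 6.21 and 6.24 FPKM on day 8, and CRABP2, which carries retinoic acid to its receptor, fell 5.35-fold. ALDH1A3, which makes retinoic acid, fell 3.58-fold, and ALDH1A1 was called at -1.03 but lost the call in all 6 fits without 1 library. CYP26B1, which degrades retinoic acid, rose from 2.03 to 9.51 FPKM.

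The contractile genes had the most falls and the lowest median of the 32 lists. Of 22 tested contractile and myofibroblast genes 17 fell, 0 rose and 5 were not called (median -1.88), against 4.49% of all tested genes that fell. These genes build the smooth muscle type of actin bundles that cultured fibroblasts form on stiff plastic, and serum response factor drives many of them by binding CArG boxes. ACTA2 (chr14:100868145-100886732), smooth muscle actin, was at 1698, 1841 and 2128 FPKM on day 0 and 184, 189.9 and 199.6 FPKM on day 8, a 9.89-fold lower mean (-3.29 ± 0.55, adjusted p = 8.83e-05). MYLK, the kinase that starts smooth muscle contraction, was at 52, 62.4 and 49.5 FPKM on day 0 and 1.98, 3.54 and 0.622 FPKM on day 8 and fell by 4.31 on the log2 scale, and DES at 29.6, 36.2 and 45.3 FPKM on day 0 and 1.27, 1.57 and 2.22 FPKM on day 8. CNN1 (calponin) was at 41.3, 48.9 and 58.5 FPKM on day 0 and 2.38, 2.73 and 3.31 FPKM on day 8, and TPM1 (tropomyosin) at 599, 598 and 555 FPKM on day 0 and 54.1, 60.5 and 57.6 FPKM on day 8. The days do not overlap in these 5 genes, which the rule that picked them required.

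A search on both strands of the 250 bases before the RefSeq gene start (Sscrofa11.1) found a CArG box, here CC followed by 6 bases of A or T and GG, in 4 of the 17 falling contractile genes (23.5%). The same pattern was in 1.31% of 19506 promoters of protein-coding genes, or 1.14% of 10817 promoters of tested genes. Stretches of 3 of these promoters are printed because they carry the element next to the fall of these genes, 5′ to 3′ on the strand of the gene, with the match in capitals and up to 20 bases on either side. They lie at chr2:77385602-77385651, minus strand for CNN2, at chr17:39788075-39788124, plus strand for MYL9 and at chr14:76699917-76699966, plus strand for VCL.
CNN2: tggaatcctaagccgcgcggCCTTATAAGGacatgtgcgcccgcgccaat
MYL9: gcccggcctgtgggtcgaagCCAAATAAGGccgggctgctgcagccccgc
VCL: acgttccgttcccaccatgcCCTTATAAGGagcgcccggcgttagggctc
The matches start 37, 70 and 206 bases before the gene start in CNN2, MYL9 and VCL. MYL9, the regulatory myosin light chain, stood at 148, 167 and 205 FPKM on day 0 and 23.1, 22 and 29.6 FPKM on day 8. CNN2, a second calponin, was at 167, 171 and 187 FPKM on day 0 and 50.2, 36.3 and 56.6 FPKM on day 8, and VCL, vinculin of the focal adhesions, at 115, 118 and 96.2 FPKM on day 0 and 29.3, 38.1 and 28.5 FPKM on day 8. All 3 genes fell, by 1.76 to 2.75 on the log2 scale. A match of letters does not show that the factor binds there, and no match in the other 13 windows says only that the letters are absent from those bases.

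RASSF4, a Ras association domain protein in none of the lists, had the largest fall among the named genes, with 45.6, 44.9 and 55.6 FPKM on day 0 and 1.03, 0.608 and 0.69 FPKM on day 8 (-4.81 ± 0.49, limma adjusted p = 3.28e-07). LIMS2, an adaptor of integrin adhesions, was at 13.8, 14.6 and 18.3 FPKM on day 0 and 0.562, 0.305 and 1 FPKM on day 8, and the zinc finger gene ZBTB7C at 22.8, 21.5 and 23.6 FPKM on day 0 and 1.04, 1.23 and 1.46 FPKM on day 8. In these genes too the days did not overlap, which the rule that picked them required.

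The CCN and YAP/TAZ targets, genes that report mechanical tension through the YAP coactivator, held 6 falls and 0 rises among 18 tested (median -0.51). CCN2, the matricellular protein also known as CTGF, was at 182, 143 and 159.8 FPKM on day 0 and 12.5, 9.85 and 14.9 FPKM on day 8, a 13.1-fold lower mean. CCN1 and AMOTL2 fell 4.92-fold and 4.66-fold. The factor TEAD4, through which YAP binds DNA, fell from 7.17, 5.68 and 6.19 FPKM to 1.51, 1.43 and 1.24 FPKM. Its core site GGAATG was in 0 of the 4 promoters that could be read among the 6, and in 10.25% of all promoters.

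Matrix genes moved in both directions. Of 31 collagen and collagen processing genes 6 rose and 7 fell, and with median ratio scaling 9 rose and 5 fell. COL1A1, the main fibrillar collagen, was at 5944, 5942 and 6518 FPKM on day 0 and 1808, 2063 and 2316 FPKM on day 8, and the crosslinking enzyme LOXL4 fell 19.9-fold. COL11A1 fell 4.24-fold. In the other direction the basement membrane chains COL4A1 and COL4A2, whose annotated spans overlap at one end on chromosome 11 so that reads there could count for either, rose 4.66-fold and 3.87-fold, and COL6A3, a microfibrillar chain abundant in fat, went from 614, 513 and 493 to 1549, 1736 and 1648 FPKM. COL18A1 rose 3.84-fold. LOX was called lower (-1.02) but neither under median ratio scaling nor in 4 of the 6 fits without 1 library.

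Among 32 matricellular, elastic fibre and proteoglycan genes 8 rose and 6 fell, and the fit on the 12 intramuscular libraries called 10 lower. FBLN1, fibulin 1, led the rises with 9.12, 8.2 and 10.6 FPKM on day 0 and 104, 97.5 and 113 FPKM on day 8 (3.36 ± 0.32), followed by PRELP and the thrombospondin family members COMP and THBS4. THBS4 was at 18.5, 19.7 and 20.4 FPKM on day 0 and 118, 112 and 128 FPKM on day 8. THBS1, the activator of latent TGF-beta, fell from 1314, 1456 and 1211 FPKM to 152, 237 and 187 FPKM, and the fibulin FBLN2 fell 5.85-fold. Within the thrombospondin family THBS1 thus fell while COMP and THBS4 rose.

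Of 22 tested matrix proteases and inhibitors 11 rose and 4 fell, with 9 to 10 rises when 1 library was left out. MMP1, interstitial collagenase, was at 3.53, 2.73 and 2.33 FPKM on day 0 and 604, 408 and 333 FPKM on day 8, a 157-fold difference of means (6.83 ± 0.86, adjusted p = 4.33e-06). MMP2, gelatinase A, rose 5.05-fold from a high base (463, 436 and 517 FPKM on day 0 and 2357, 2207 and 2593 FPKM on day 8), and the aggrecanases ADAMTS4 and ADAMTS5 rose 13.5-fold and 7.24-fold. PLAU, the urokinase that activates plasminogen, fell 3.69-fold. TIMP3, a matrix-bound inhibitor, fell 4.89-fold, and MMP16 was called lower (-1.31) but not in 5 of the 6 fits without 1 library.

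AP-1, the inducible factor of FOS and JUN, binds TGANTCA, where N is any base. The motif was in 3 of the 15 rising gp130 and protease genes (20%) and in 5.23% of the 19506 promoters. The stretches are shown for IL11 (chr6:59544966-59545012, minus strand), MMP19 (chr5:21285944-21285974, minus strand) and PLAUR (chr6:50505501-50505547, minus strand), since they stand before genes of both rising groups, with the motif in capitals.
IL11: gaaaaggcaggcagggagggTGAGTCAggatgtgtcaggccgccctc
MMP19: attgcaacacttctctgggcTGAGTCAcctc
PLAUR: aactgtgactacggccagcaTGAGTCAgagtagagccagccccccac
The motif starts 83 bases before the gene start in IL11, 11 bases before it in MMP19 and 74 bases before it in PLAUR. MMP19, a further metalloproteinase, was at 20.8, 21.7 and 22.7 FPKM on day 0 and 53.4, 55.5 and 56.6 FPKM on day 8, and PLAUR, the urokinase receptor, at 41.4, 40.2 and 45.6 FPKM on day 0 and 181, 144 and 153 FPKM on day 8. Both rose, by 1.31 and 1.88 on the log2 scale.

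Glycolysis genes had positive changes throughout. Of 19 tested glycolytic genes 19 had a positive change, 4 were called higher and 0 lower (median 0.75), and the number of calls was 7 under median ratio scaling. Of all tested genes 4.56% were called higher, and their median change was -0.05. LDHA, which makes lactate, was at 518, 540.1 and 557 FPKM on day 0 and 1084, 1145 and 1152 FPKM on day 8 (1.06 ± 0.20). Its call was lost under quantile normalization. ENO2, an enolase isoform, rose 11.7-fold and SLC16A3, the lactate exporter MCT4, 5.23-fold. ALDOA was called at 1.25 but not without IMF-0d replicate 1, IMF-0d replicate 2 or IMF-8d replicate 3 (adjusted p up to 0.0191). Of 19 hypoxia-inducible genes 7 rose and 1 fell. NDUFA4L2, a mitochondrial protein induced by HIF1 and a candidate of the study, was at 8.32, 8.56 and 9.64 FPKM on day 0 and 175, 152 and 194 FPKM on day 8, and the HIF prolyl hydroxylase EGLN3 rose 4.92-fold. The hypoxia response core ACGTG was in 1 of the 11 promoters of the rising genes of these lists (ADM, 9.1%), against 18.74% of all promoters. Genes of the citrate cycle and oxidative phosphorylation held 0 rises and 1 fall among 31 tested, against 4.56% of all tested genes that rose and 4.49% that fell. The fall was IDH1, whose enzyme works in the cytosol and makes NADPH, from 57.4 to 22.1 FPKM.

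Cell cycle genes had negative changes throughout. All 28 tested members had a negative change, 13 were called lower and 0 higher (median -0.97). Of all tested genes 4.49% were called lower, and their median change was -0.05. CDC20, an activator of the anaphase-promoting complex, was at 32.1, 23.9 and 30.7 FPKM on day 0 and 6.98, 4.93 and 6.93 FPKM on day 8, and CCNB1, the mitotic cyclin, at 24.1, 21.6 and 20.2 FPKM on day 0 and 5, 6.17 and 5.14 FPKM on day 8. The replication helicase subunit MCM4 fell 3.43-fold and the checkpoint kinase BUB1B 4.14-fold. Among CDK inhibitors and p53 targets, 3 of 17 rose and 2 fell, against 4.56% of all tested genes that rose. Under median ratio scaling 1 fell, and when 1 library was left out 2 to 3 rose and 1 to 2 fell. GADD45A, a growth arrest gene, fell from 78.3, 76.1 and 84 FPKM to 7.21, 6.16 and 8.47 FPKM, while SESN1 and TP53INP1 rose 4.09-fold and 2.35-fold. FAS was called at 1.16, but not in 5 of the 6 fits without 1 library.

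Among 22 tested genes of the amino acid and ER stress response 9 fell and 1 rose (median -1.0). Of all tested genes 4.49% fell and 4.56% rose. TRIB3, a pseudokinase target of ATF4, was at 45.8, 42 and 48.4 FPKM on day 0 and 5.29, 4.33 and 5.51 FPKM on day 8, and PSAT1, an enzyme of serine synthesis, at 338, 322 and 319.5 FPKM on day 0 and 71.3, 83.5 and 63 FPKM on day 8. SLC7A5, a leucine transporter, fell 5.18-fold and DDIT3 (CHOP) 4.76-fold, DDIT3 with an adjusted p of 0.0104 without IMF-8d replicate 1. DDIT4, an inhibitor of mTORC1, rose 2.95-fold. Antioxidant genes held 4 rises and 0 falls among 23. SOD3, the extracellular superoxide dismutase, was at 34.3, 25.1 and 40.2 FPKM on day 0 and 635, 500.4 and 776 FPKM on day 8, and SOD2, the mitochondrial one, at 96.6, 79.8 and 76.7 FPKM on day 0 and 1475, 1725 and 949 FPKM on day 8. PRDX6 and TXNIP rose 6.72-fold and 6.51-fold. Catalase (CAT) had a log2 change of 1.14 ± 0.39 and was not called (adjusted p = 0.0281), although it passed in the fit on the 12 intramuscular libraries (adjusted p = 3.98e-07). Lysosomal genes held 4 rises and 1 fall among 23, so the single fall was near the share of all tested genes. The protease CTSL led the rises (10.7, 8.19 and 8.7 FPKM on day 0 and 274, 234 and 237 FPKM on day 8). NPC1, which exports cholesterol from lysosomes, was the fall (log2 change -1.23), and its call was lost in 4 of the 6 fits without 1 library, with an adjusted p of up to 0.0116. Cytosolic ribosomal proteins held 0 calls among 22, with changes of -0.10 to 0.46.

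**Figure D3:**
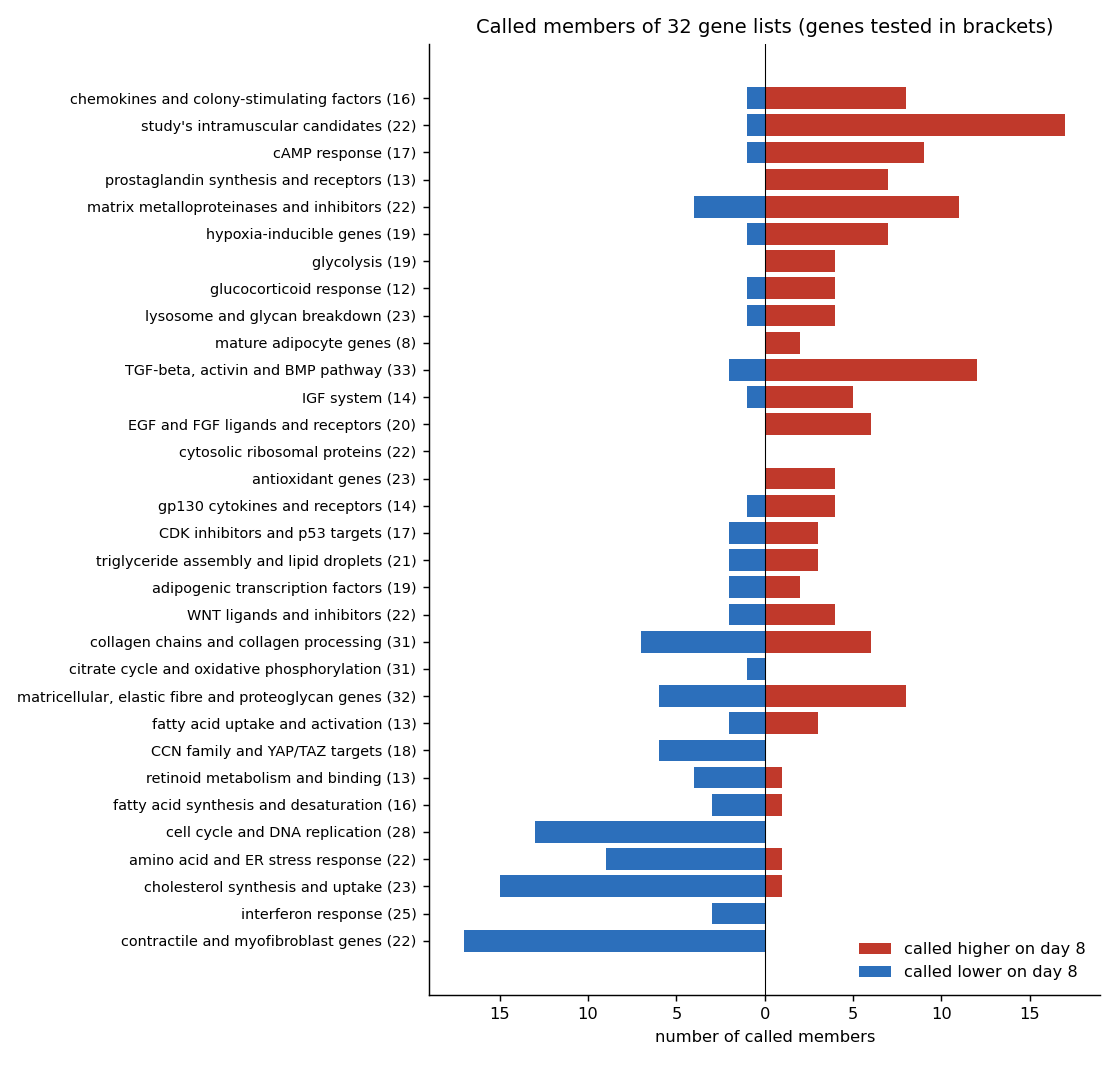
Number of called members of 32 gene lists in day 8 against day 0 of intramuscular cells, higher to the right (red) and lower to the left (blue), with the number of genes tested in brackets and the lists ordered by their median log2 change. Contractile genes (17 of 22 lower), cholesterol genes (15 of 23 lower) and cell cycle genes (13 of 28 lower) lie at the falling end, and the study's own candidates (17 of 22 higher) and chemokines (8 of 16 higher) at the rising end.

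Of 25 tested interferon-stimulated genes 23 had a negative change, and how many passed differed with the libraries that set the error. With the spread of all 8 groups, 3 fell and 0 rose at a median change of -1.47, and 0 to 1 fell when 1 library was left out. In the fit on the 12 intramuscular libraries 16 fell and 1 rose. MX1, an antiviral GTPase, was at 225, 204 and 269 FPKM on day 0 and 59.4, 48.6 and 47.6 FPKM on day 8 (-2.14 ± 0.60, adjusted p = 0.00839), and OAS2 was called at -2.09, but both lost the call in each of the 6 fits without 1 library, with adjusted p up to 0.0329. IFIT1 was at 97.4, 92.7 and 119.5 FPKM on day 0 and 16.8, 13.9 and 10.2 FPKM on day 8, with no overlap between the days, and an adjusted p of 0.0232 with all libraries and 6.22e-07 with the intramuscular ones. The subcutaneous day 8 libraries, which enter the shared error, held IFIT1 at 38.6, 1289.7 and 476 FPKM. IRF9, part of the factor that interferon activates, fell from a mean of 20.6 to 7.99 FPKM, a call lost without IMF-0d replicate 1 or 3 (adjusted p up to 0.0191).

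The 22 genes that the study put forward as intramuscular candidates were followed too. They were chosen by the study on these same libraries, so their direction is not independent evidence. Of these, 17 rose, 1 fell and 4 were not called, with a median change of 1.66. GNAS, named here by the gene ID the study pairs with it, codes for the stimulatory G protein subunit and was at 3.74, 0.913 and 1.64 FPKM on day 0 and 76.1, 183 and 164 FPKM on day 8. ATP1B1, a sodium pump subunit, rose 6.92-fold, the cytochrome P450 CYP2B22 13.7-fold, and ANGPT1, the vessel-stabilising ligand angiopoietin 1, from 1.05, 0.961 and 0.685 to 13.5, 14.7 and 11.1 FPKM. PLK1, the mitotic kinase, was the candidate that fell, from 4.41, 3.63 and 4.37 FPKM to 1.01, 0.944 and 1.35 FPKM. The uncalled ones were THSD7A, ADORA1, LDHD and SGPP2, at day 8 means of 0.255, 0.445, 2.23 and 0.737 FPKM. With a pseudocount of 0.1, which compresses low values less, THSD7A, ADORA1 and SGPP2 were called higher too, and 20 of the 22 rose.

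The day 4 libraries divide the period. From day 0 to day 4, 189 genes were called (1.17% of 16135), 92 of them higher (0.57%) and 97 lower (0.601%), and 403 were called with a pseudocount of 0.1. From day 4 to day 8, 1169 were called (7.25%), 672 higher (4.16%) and 497 lower (3.08%), and 2103 with that pseudocount. With median ratio scaling 69.7% of the later calls were higher, against 57.5% here. These comparisons share libraries with the net change, so their values are set side by side only. Cholesterol genes held 0 calls of 23 by day 4 and 16 falls after it, and contractile genes 1 fall by day 4 and 14 falls and 1 rise after it. The rise was SMTN, smoothelin, from a mean of 14.6 to 42.3 FPKM, named after its value was seen. IL11 stood at means of 1.53, 8.12, 3.96 and 828 FPKM on days 0, 2, 4 and 8, and PTGS2 at 1.99, 6.6, 2.93 and 419.7 FPKM. Neither was called between days 0 and 4. Glycolysis had a median of -0.69 by day 4 with 1 call, lower, and of 1.49 from day 4 on with 16 calls, all higher, which left 4 calls in the net change.

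A smaller set moved early. FBLN1 was at means of 9.31, 50.6, 85.4 and 105 FPKM on the 4 days and changed by 3.07 ± 0.32 between days 0 and 4. POSTN, the matrix protein periostin, changed by 2.02 ± 0.37 over the same days, also called. COMP was at 135, 623, 487 and 996 FPKM, with no call in the first interval. DES was at means of 3.85 FPKM on day 2 and 11.7 FPKM on day 4 and was called lower by day 4, and SGK1 was called higher by then. By day 4, 6 of 32 matricellular genes and 4 of 20 EGF and FGF pathway genes were called higher, against 0.57% of all tested genes. MYLK and the retinoid enzyme DHRS3 had higher means on day 4 (91.2 and 129 FPKM) than on day 0 (54.6 and 51.4 FPKM), called for DHRS3 and not for MYLK, and both fell after day 4.

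**Figure D4:**
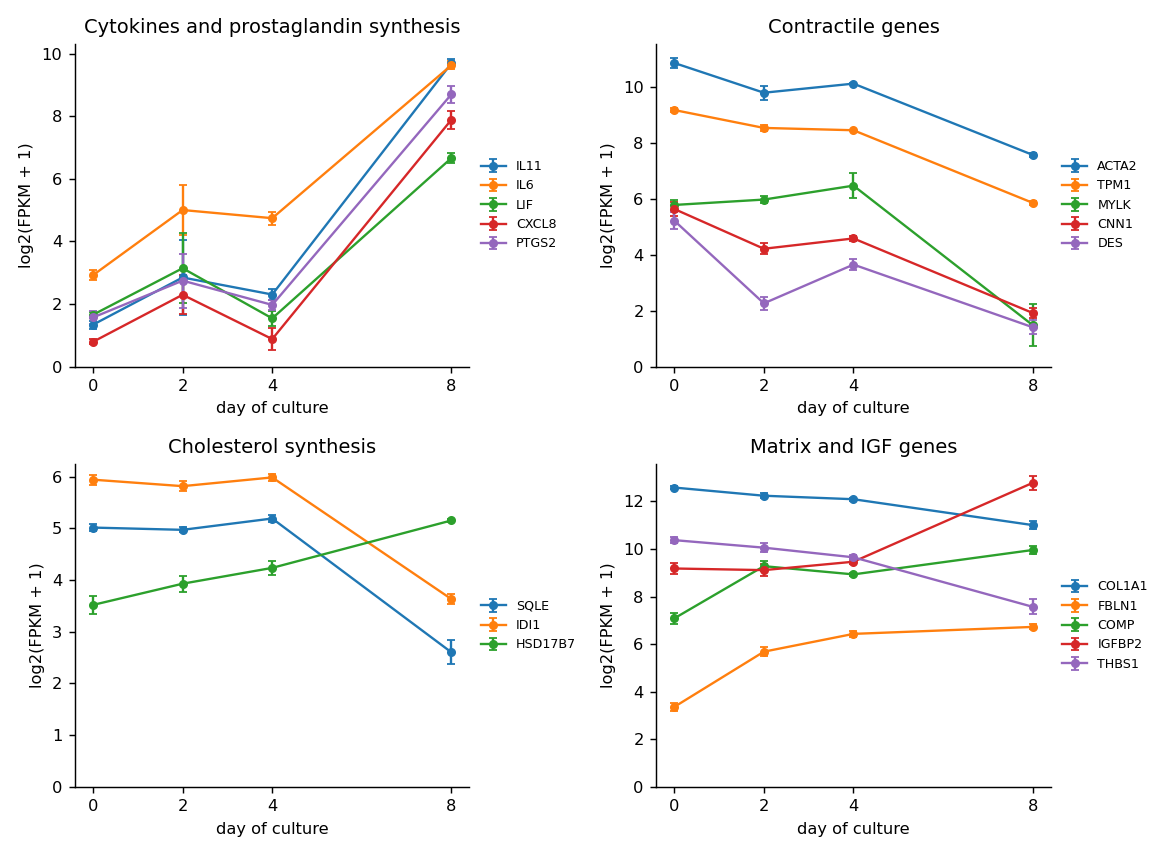
Level of 18 genes in intramuscular cells over days 0, 2, 4 and 8 (horizontal axis), as mean log2(FPKM + 1) of 3 libraries with the SD as error bar, in 4 panels by gene group. Cytokine genes such as IL11 (3.96 FPKM on day 4, 828 FPKM on day 8) and the cholesterol genes SQLE and IDI1 take most of their step after day 4, while FBLN1 and COMP already have higher means on day 2.

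Whether these changes were particular to the intramuscular depot was tested with an interaction contrast, the intramuscular net change minus that of the subcutaneous cells. It was called for 804 genes (4.98% of 16135), 461 with a more positive change in intramuscular cells (2.86%) and 343 with a more negative one (2.13%), and for 50 of the 217 named genes tested. For IL11, LPL, PTGS2, CEBPB, MYLK and SQLE it was not called, at values of -0.57 ± 1.08, -1.11 ± 0.82, -1.38 ± 0.91, -0.02 ± 0.35, -0.46 ± 0.55 and 0.60 ± 0.29, which does not show that the depots moved alike.

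In subcutaneous cells 6.28% of tested genes were called higher on day 8 and 7.39% lower (13.7% in all). ACTA2 fell less in intramuscular cells. The subcutaneous libraries went from 1550.4, 1609 and 1641 FPKM to 12.1, 3.57 and 3.86 FPKM, so that the interaction was 4.63 ± 0.77 (adjusted p = 0.000385). POSTN rose in intramuscular cells (20.4, 24.2 and 15.7 FPKM on day 0 and 77.1, 111 and 87.6 FPKM on day 8) and fell in subcutaneous cells from 161, 171 and 189.9 to 17.4, 8.88 and 11.8 FPKM, an interaction of 5.86 ± 0.53 (adjusted p = 2.52e-07). PENK, the precursor of the opioid peptide enkephalin, was at 1.22, 0.816 and 1.17 FPKM on day 0 and 66.4, 70.3 and 84.2 FPKM on day 8 in intramuscular cells. In subcutaneous cells it was at 0.131, 0.198 and 0.0847 FPKM on day 0 and 1.32, 0.892 and 0.85 FPKM on day 8 (0.82 ± 0.30, adjusted p = 0.0276, not called). Its interaction was 4.35 ± 0.42.

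PLIN2, not called in intramuscular cells, rose in subcutaneous cells from 18.1, 19.1 and 18.5 to 203, 103 and 185 FPKM, with an interaction of -2.98 ± 0.33 (adjusted p = 3.91e-06). RSAD2, IFIT1 and MX2, all interferon-stimulated, had the most negative values, at -8.35 ± 1.37, -7.85 ± 1.34 and -7.71 ± 1.23. For these 3 genes the subcutaneous day 8 libraries differed widely among themselves. RSAD2 was at 21.1, 1696 and 381 FPKM there and at 6.2, 8.95 and 5.33 FPKM in the intramuscular libraries. By list, the interaction was called negative in 18 of 25 interferon genes and positive in 14 of 32 matricellular and 11 of 23 lysosomal genes. The interaction counts ranged from 637 to 987 when 1 of its 12 libraries was left out, and the 987 came without BF-8d replicate 1.

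**Figure D5:**
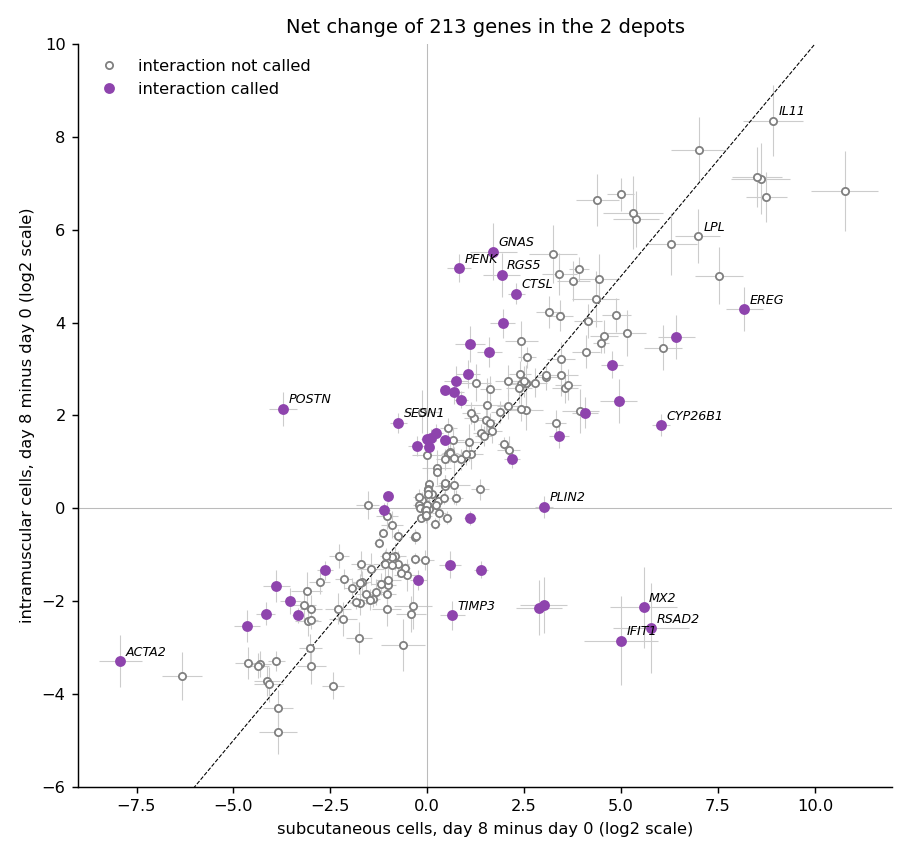
Net change from day 0 to day 8 (log2 scale, with standard errors) of 213 named genes tested, in subcutaneous cells (horizontal axis) and intramuscular cells (vertical axis), with a dashed line of equal change. Filled purple points are the 48 genes whose interaction was called, among them POSTN, PENK and ACTA2 above the line and RSAD2, IFIT1, MX2 and PLIN2 below it.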

How the data were processed

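RNA was measured in 24 libraries of primary porcine cells, from 2 depots on 4 days with 3 libraries per group, and groups follow the labels. The authors took polyadenylated RNA, aligned reads with HISAT2 to the pig genome and quantified genes with StringTie 1.3.4d, and deposited the values as FPKM for 25462 genes. They tested differences with DESeq2 1.6.3 on counts, which were not used here, so no count test was run. Low values do not fall on whole-read steps, so read depth could not be recovered from the FPKM values and counting intervals were not set. The paper reports its sequencing output, which was not used here.

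Values were transformed to log2(FPKM + 1). Genes whose FPKM summed to more than 1 over the libraries (16135) were fitted with limma 3.58.1 in R 4.3.3, with one mean per group, all 24 libraries sharing the error, and trended, robust moderation. Calls needed a Benjamini-Hochberg adjusted p under 0.01 over all tested genes and a log2 change of at least 1. Symbols were matched for 14815 gene IDs. Promoter sequences are RefSeq, Sscrofa11.1. A few genes and 1 promoter stretch are not reported here, though they count in the totals of their lists.

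Named genes are the 12 largest rises and falls among called genes with a symbol, at least 1 FPKM and no overlap of the days, up to 4 called members per direction of each list, the cell type markers, adipocyte genes, the study's 22 candidates, and the 3 largest interactions per direction. Genes named for a promoter motif were added after their values were seen. The gene lists and this comparison were chosen with earlier results of these data known. Alternatives were a pseudocount of 0.1, other filters, scalings and error models, fewer groups, a replicate block and leaving out each library. Replicate numbers were not used to pair the samples in the main fit.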

Additional observations from a re-analysis of the deposited data

Results flagged for a closer look

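The net change from day 0 to day 8 differed between the depots, by the interaction in limma, for 50 of the named genes, of which 48 are given here as the intramuscular change minus the subcutaneous change on the log2 scale. The call held in all 12 fits without 1 library for 30 of them, was lost in at least 1 for 20, and the sign turned in 0.

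Among interferon-stimulated genes RSAD2 was at -8.35, IFIT1 at -7.85, MX2 at -7.71, OAS2 at -5.09, MX1 at -5.02 and IRF9 at -1.82. The 3 subcutaneous day 8 libraries differed widely in these genes (MX1 at 54.9, 594 and 419 FPKM, MX2 at 8.88, 497 and 146 FPKM), and the part of that spread in the result was not tested. Among secreted and signalling genes EREG was at -3.89, TIMP3 at -2.96, AREG at -2.73 and SOCS3 at -2.7. The retinoic acid hydroxylase CYP26B1 was at -4.24. In lipid genes PLIN2 was at -2.98, ACSL4 at -1.68 and SCD at -1.31. Genes of glycolysis and hypoxia were SLC16A3 at -2.63, EGLN3 at -2.01, DDIT4 at -1.84 and LDHA at -1.11. NT5E, a stromal surface enzyme, was at -1.31.

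On the positive side the matrix genes were POSTN at 5.86, MFAP4 at 2.22, FBLN2 at 2.11, THBS4 at 2.09, CCN1 at 1.89, FBLN1 at 1.76, COL11A1 at 1.54, MMP2 at 1.47 and DCN at 1.28. ACTA2 was at 4.63 and the pericyte gene RGS5 at 3.11. PENK was at 4.35, IGFBP4 at 2.43, FGF2 at 1.82, KLF15 at 1.41, SESN1 at 2.59, SOD2 at 2.03 and HSD11B1 at 2.01. Lysosomal genes were CTSL at 2.32, GLA at 1.82 and CTSB at 1.61. The sterol and NADPH genes HSD17B7, IDH1 and IDI1 were at 1.41, 1.31 and 1.03. Of the study's candidates GNAS was at 3.83, ENSSSCG00000037487 at 1.51, RAPGEF4 at 1.26 and SHC3 at 1.01, and the endothelial marker PECAM1 was at 1.08. MX1, OAS2 and SOCS3 fell in intramuscular cells and rose in subcutaneous cells, and POSTN did the reverse, with both changes called.

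FBLN1 and SLC16A3 lost the interaction call in all 12 fits without 1 library. AREG and LDHA lost it in 11, ACSL4 and GLA in 10, COL11A1, EGLN3 and SCD in 9, HSD11B1 and IRF9 in 8, FBLN2, GNAS and SHC3 in 6, IGFBP4 and SOD2 in 5, IDH1 and IDI1 in 4, and PECAM1 in 2.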

How the results depend on the processing

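With a pseudocount of 0.1, 2469 genes were called in the net change, 403 up to day 4 and 2103 after it, and the named genes FABP4, ADORA1, THSD7A, SGPP2, CD34, CLDN5, DLK1 and KCNJ8 gained a call. Leaving out 1 library gave 1349 to 1443, 146 to 162 and 1079 to 1183 calls, and 637 to 987 for the interaction, in which the highest came without BF-8d replicate 1. The fit with a replicate block called 1463, 189, 1168 and 783 genes in the 4 comparisons and changed no call of a named gene. Deviations of same-numbered intramuscular day 0 and day 8 libraries correlated at -0.162, 0.322 and 0.457, and those of different numbers at -0.514 to 0.298. With so few libraries these values do not settle whether the numbers pair samples. The labels do not say either, so the main fit took no pairing. Median ratio scaling gave 60.0% higher among the calls of the net change and 69.7% (817 higher, 356 lower) after day 4, against 50.4% and 57.5%. Of the 171 called named genes 147 kept the call in all 6 fits without 1 library and 146 under all 16 alternatives, and ALDH1A1, GK, INHBA, MX1 and OAS2 lost it in all 6. LDHA lost it under quantile normalization. No called named gene changed sign in the net change under these alternatives, while uncalled genes with changes near 0, such as CEBPA, LUM, PECAM1 and PLIN2, did. A fit without BF-2d replicate 3 was chosen after seeing the data, and it left the number of calls within 1.5 times in each comparison but ended the call of OAS2 and gave CAT one. Read depth could not be recovered from the FPKM values, labels do not tie libraries to piglets, and values near 0 FPKM rest on few reads.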
